A study of Mus musculus with 12 samples.

Results

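The response to hypoxia was measured in dN-VEGF cells, a mouse fibroblast line from which the N-VEGF coding stretch of the Vegfa gene had been deleted. The comparison used all 6 RNA-Seq samples of this line, out of 12 samples in the series: 3 kept in normoxia and 3 kept below 0.2% oxygen, the latter for 16 h and the former for about as long. The parent of the line is NIH3T3, an immortalised mouse embryonic fibroblast line, and its 6 samples (wild type, 3 in normoxia and 3 in hypoxia under the same conditions) served to estimate the spread between samples and to test whether a response differed between lines. Both alleles had been cut with Cas9 and a pair of guide RNAs, replaced by reporter and selection cassettes, and freed of the cassettes with VCre recombinase delivered by a retroviral vector. The dN-VEGF cells therefore descend from single picked clones, and more than 1 such clone was made. The sources used here do not say which clone was sequenced, nor whether the 3 samples of a group were separate cultures, so p-values measure the spread between these samples. A difference between the lines cannot be told apart from a difference between a clone and its parent. Of 54446 genes in the count table, 14724 had enough counts to be tested, and every one of these entered the analysis. To describe pathways and gene families, 36 lists with 1173 members were drawn up from general knowledge, with earlier results of these data known. Of the members, 1107 could be tested.

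Cells that run short of oxygen stabilise the α subunits of the hypoxia-inducible factors (HIFs), because the prolyl hydroxylases that mark these subunits for destruction need oxygen. HIFs then bind a short DNA core upstream of genes for glycolysis, glucose import, blood vessel growth and mitochondrial turnover, of which Vegfa is the best known. Severe oxygen shortage also disturbs protein folding in the endoplasmic reticulum (ER), where disulfide bonds are made with oxygen as the final electron acceptor, and it slows protein synthesis and the cell cycle. N-VEGF is the part of the long Vegfa product that lies before the usual start codon and is cut off from the secreted growth factor. The comparison asks which of these programs moved in fibroblasts that lack the N-VEGF stretch.

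The deletion and the DNA elements that several of the responding gene lists are known for are shown here as sequence. Both guides lie in exon 1 of Vegfa (GRCm38.p6, chr17:46031291-46032369, minus strand) and their cuts are 439 bases apart in the transcript. The guide is in lower case, and the capitals mark the adjacent NGG motif that Cas9 needs.
gRNA1 (antisense to Vegfa, chr17:46031824-46031843): tcggcagcccgccggcgaggAGG
gRNA4 (sense, chr17:46031399-46031418): ctcgcagtccgagccggagaGGG
The deposited counts cover whole genes, so the removed stretch cannot be seen in them and the Vegfa count does not check the deletion.

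Promoters of 300 bases (250 before and 50 after the start site, RefSeq, GRCm38.p6) were at hand for 10377 of 14722 tested gene symbols and were searched on both strands. The HIF core ACGTG or GCGTG stood in 27 of 28 promoters of the HIF target list (96.4%) and in 66.7% of all promoters, and it stood in 67.6% of those of genes that rose at least 2-fold. It stood in 83.3% of the promoters of the glycolysis list, 75.0% of those of procollagen enzymes and 76.5% of those of JmjC demethylases. The sterol element TCACCCCAC stood in 1 of 17 promoters of the cholesterol list and in 0.675% of all. The ER stress element (CCAAT and CCACG with a gap of 9 bases between them), the site of ATF6 with NF-Y, stood in 8 of 26 promoters of the ER list (30.8%) and in 0.183% of all. The element TGATGNAA, bound by ATF4 dimers, was found in 8 of 25 promoters of the ATF4 list (32.0%) against 2.76% of all, and the cell cycle homology region TTTGAA in 31 of 43 promoters of the mitosis list (72.1%) against 14.5%. The E2F site TTTCCCGC stood in 7 of 41 DNA replication promoters (17.1%) against 2.33%. A match is a description of the letters and not evidence of binding. CCAAT on its own, which is part of the ER stress element, stood in 74.4% of the mitosis promoters and in 43.4% of all. The windows below hold 30 bases around a match in promoters chosen for holding one, with the matched letters of either strand in capitals. Of the other promoters searched for such windows, those of Ddit3 (ATF4 element), Pdia4 (ER stress element), Ccnb1 (cell cycle homology region) and Mcm2, Pcna, Rrm2 and Cdc45 (E2F site) held no match, and neither did 1 of 2 Vegfa and 2 of 3 Kdm3a promoters (HIF core).
Bnip3 (HIF core, chr7:138909606-138909635, minus strand): cccatgccggcgCACGCgccgCACGTGcca
Car9 (HIF core, chr4:43506996-43507025, plus strand): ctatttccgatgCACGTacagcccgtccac
Pgk1 (HIF core, chrX:106186938-106186967, plus strand): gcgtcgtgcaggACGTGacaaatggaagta
Ankrd37 (HIF core, chr8:46000071-46000100, minus strand): cccagcagtACGTGcctagctcggctcgca
Hspa5 (ER stress element, chr2:34772020-34772049, plus strand): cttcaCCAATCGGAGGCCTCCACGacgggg
Hsp90b1 (ER stress element, chr10:86705632-86705661, minus strand): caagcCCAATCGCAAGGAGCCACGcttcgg
Asns (ATF4 element, chr6:7693214-7693243, minus strand): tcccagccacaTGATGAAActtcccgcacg
Trib3 (ATF4 element, chr2:152344028-152344057, minus strand): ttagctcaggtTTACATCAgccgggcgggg
Cdk1 (cell cycle homology region, chr10:69352966-69352995, minus strand): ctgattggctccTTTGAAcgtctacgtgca
Plk1 (cell cycle homology region, chr7:122159453-122159482, plus strand): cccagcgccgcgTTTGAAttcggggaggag
Mcm3 (E2F site, chr1:20820275-20820304, minus strand): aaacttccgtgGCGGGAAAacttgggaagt

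Levels are given as CPM, a gene's counts per 1000000 counts of its TMM-scaled library, and changes as log2 fold changes of hypoxia against normoxia with their standard error (SE) from edgeR. A gene was said to rise or fall at an adjusted p below 0.05 by the quasi-likelihood F test of edgeR, adjusted over all tested genes by Benjamini-Hochberg. Each normoxia sample held between 36251428 and 41608788 counts and each hypoxia sample between 37688691 and 38978912, and the first principal component of the 6 samples held 85.3% of the variance and parted the conditions. Replicate 2 of dN-VEGF normoxia stood apart from its fellows: it correlated with them at 0.986, where replicates 1 and 3 correlated at 0.996, and it set the second component (8.24%). Replicate 2 of wild-type normoxia stood apart more strongly (correlations of 0.956 and 0.957 with its fellows), and this sample widens the shared spread. Results were therefore also computed without each of them. The TMM factors of normoxia lay between 1.05 and 1.13 and those of hypoxia between 0.825 and 0.837. With library totals in place of TMM, the median of all genes moved from -0.01 to -0.41 on the log2 scale, so every change below is relative to the TMM scale.

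Hypoxia moved a large share of the transcriptome of dN-VEGF cells. At an adjusted p below 0.05, 3964 genes rose (26.9% of those tested) and 3889 fell (26.4%), and with the added requirement of a 2-fold change the numbers were 2144 (14.6%) and 1864 (12.7%). All hypoxia samples lay above all normoxia samples for 34.9% of the tested genes and below them for 35.6%. Without replicate 2 of dN-VEGF normoxia, 3871 genes changed at least 2-fold in place of 4008, and 3506 of them were among the 4008. Of the changed genes, 53.5% rose, and with library totals only 28.5%.

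**Figure D1:**
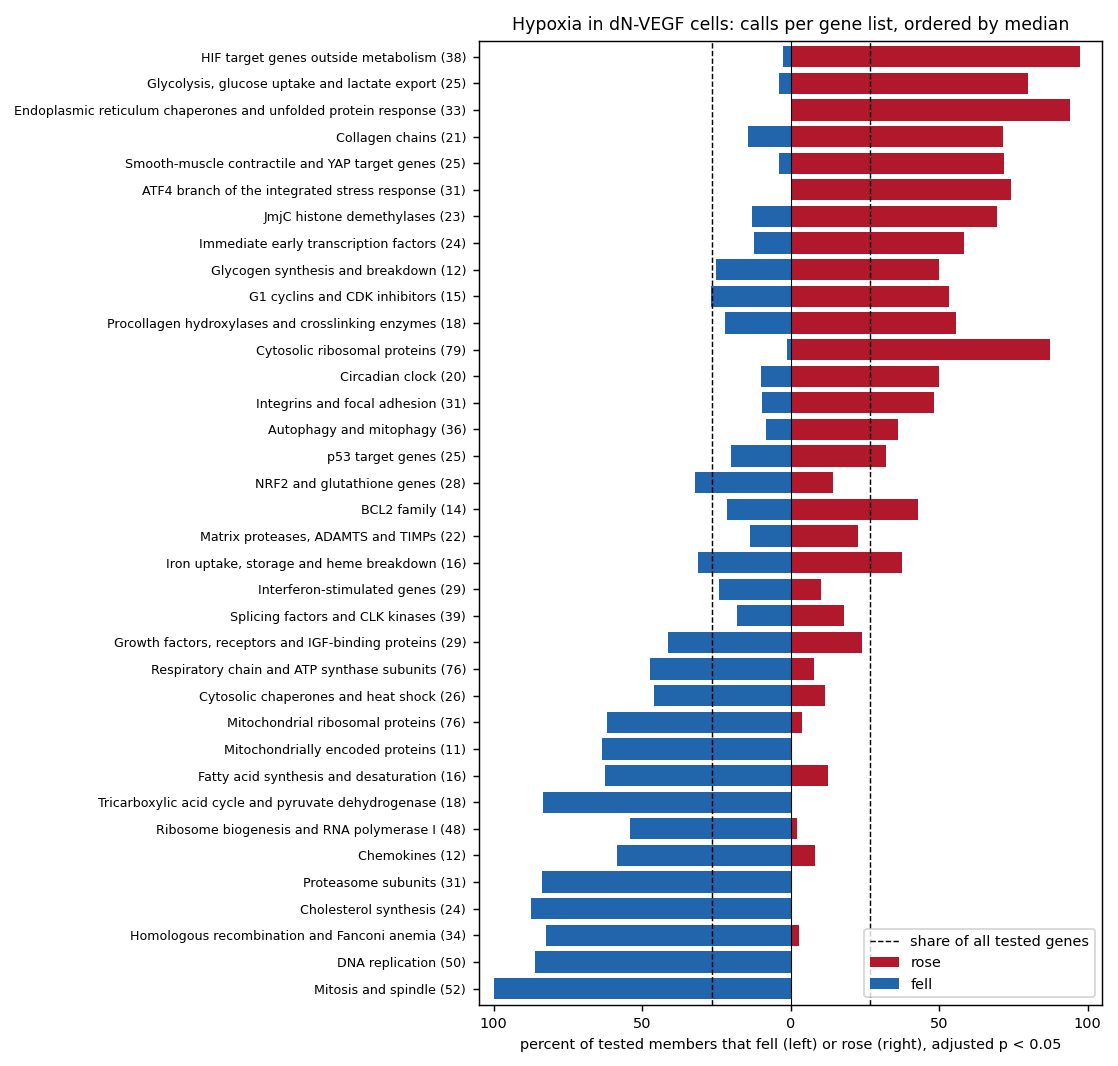
Percent of the tested members of each of 36 gene lists (number tested in parentheses) that rose (red, right) or fell (blue, left) after hypoxia in dN-VEGF cells at an adjusted p below 0.05, ordered by the median log2 fold change. Dashed lines mark the shares over all 14724 tested genes, 26.9% up and 26.4% down, and the bars of HIF targets (37 of 38 up) and mitosis genes (52 of 52 down) stand at the ends.

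The list medians were also followed sample by sample, as the median over a list of each gene's log2 CPM minus its normoxia mean. In the 3 hypoxia samples the HIF targets stood at 3.32, 3.34 and 3.36, the glycolysis list at 2.13, 2.2 and 2.1 and the ER list at 1.89, 1.69 and 1.99. The mitosis list stood at -2.32, -2.25 and -2.35, and DNA replication at -1.95, -1.86 and -1.82. For DNA replication the normoxia samples themselves were spread, with -0.22, 0.44 and -0.21, so that replicate 2 of normoxia lay above its fellows. The same sample was the highest of its group for proteasome subunits (0.31 against -0.17 and -0.14), ribosome biogenesis (0.30 against -0.16 and -0.15) and chemokines (0.57 against -0.43 and -0.28). In each of these lists all 3 hypoxia samples still lay below all 3 normoxia samples.

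**Figure D2:**
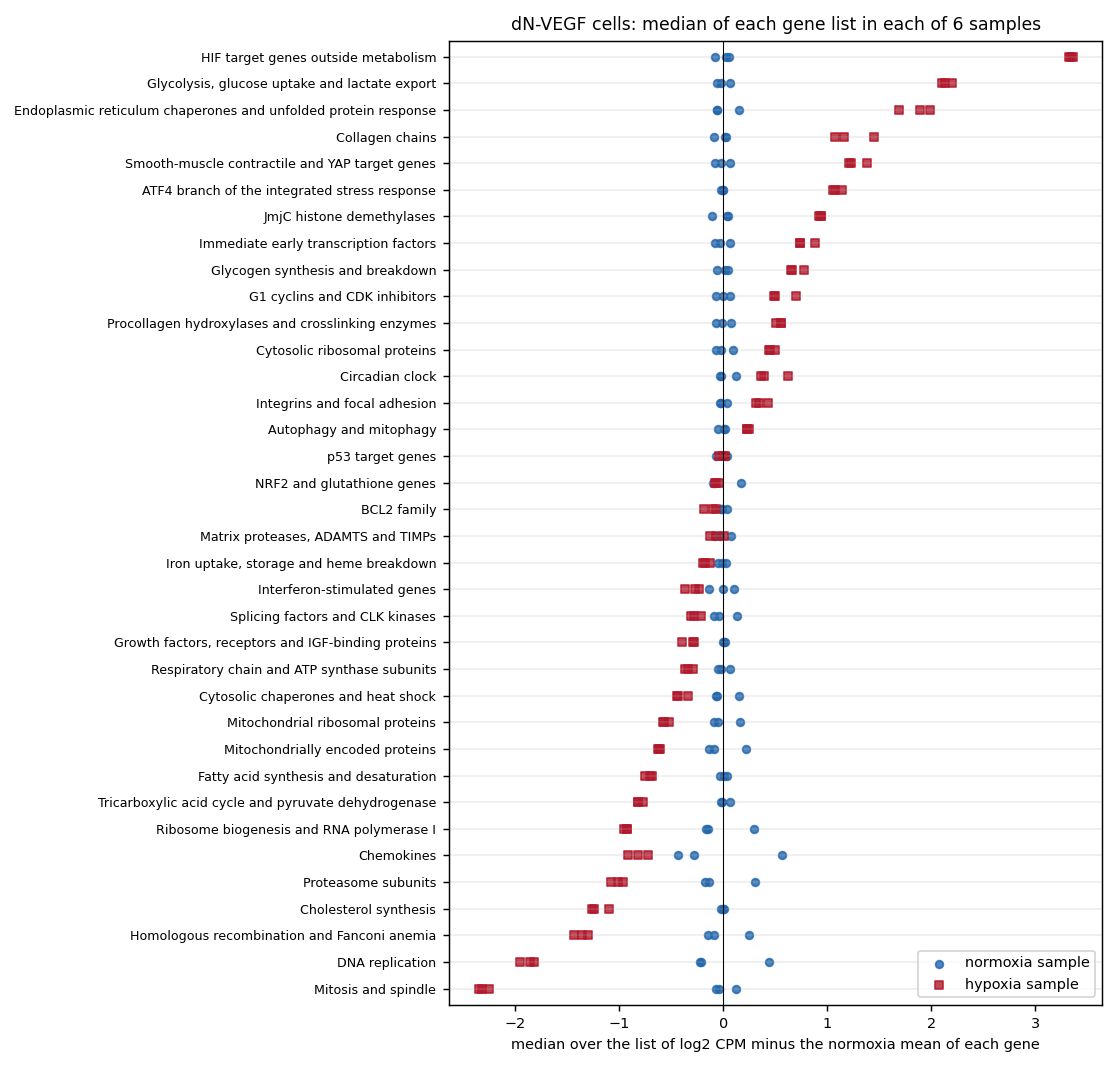
Median of each gene list in each of the 6 dN-VEGF samples (blue circles normoxia, red squares hypoxia), on the horizontal axis as log2 CPM minus the normoxia mean of each gene. Hypoxia samples lie close together in nearly every list, from 3.32 to 3.36 for HIF targets to -2.35 to -2.25 for mitosis, and 1 normoxia sample, replicate 2, lies to the right of its fellows in the lists on DNA replication, proteasome, ribosome biogenesis and chemokines.

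The known HIF target genes outside metabolism rose almost as a block. Of 38 tested members, 37 rose, 35 of them at least 2-fold, and 1 fell, against 26.9% and 26.4% of all genes, and the list median was 3.31 against -0.01. The summed level of the list was 2873 to 3336 CPM in normoxia and 26230 to 26663 CPM in hypoxia. Vegfa, the gene that carries the deletion and encodes the main angiogenic growth factor, stood at 37.3, 34.2 and 35.5 CPM in normoxia and at 437, 419 and 430 CPM in hypoxia. It rose 12-fold (log2 3.59, SE 0.25, adjusted p 6.6e-07) with no overlap between the samples. Bnip3, which drives the removal of mitochondria, had 19.5, 16.3 and 18.6 CPM in normoxia and 421, 420 and 425 CPM in hypoxia. The hypoxia samples differed by less than 2% and the rise was 23.3-fold (log2 4.54, SE 0.11, adjusted p 6.4e-10). Car9, the carbonic anhydrase that exports acid equivalents, was close to silent in normoxia at 0.754, 0.616 and 1.0 CPM. It reached 45.7, 45.7 and 44.4 CPM in hypoxia, a 57.1-fold rise (log2 5.84, SE 0.40, adjusted p 6.6e-07).

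Other members of the list rose over a wide range of starting levels. Ndrg1, a growth-arrest protein of stressed cells, went from 207, 122 and 207 CPM to 2899, 2884 and 2886 CPM (16.2-fold), and Adm, the vasodilator peptide adrenomedullin, from 33.8, 19.1 and 31.4 to 325, 308 and 315 CPM (11.2-fold). Ankrd37 and the metallothionein Mt2 were low in normoxia (3.32 to 4.03 and 4.48 to 5.92 CPM) and rose 25.4-fold and 25.8-fold. Genes on the other strand overlap 73.5% of the exonic bases of Mt2 and 22.7% of those of Ankrd37. Strand use in the counting is not given in the sources, so these counts carry that uncertainty. The partners had 19 counts (Mt2) and 48 counts (Ankrd37) on average, and a further partner of Ankrd37, Ufsp2, which overlaps 3.70% of its exonic bases, had 1517. Egln3, a prolyl hydroxylase that marks HIF α subunits, rose 8.73-fold (log2 3.13, SE 0.30, adjusted p 7.6e-06). Hif1a itself stood at 227, 167 and 232 CPM in normoxia and at 348, 338 and 366 CPM in hypoxia (log2 0.75, SE 0.22, adjusted p 0.014), a call that was lost without replicate 2 of dN-VEGF normoxia (log2 0.61, adjusted p 0.057) and with library totals (log2 0.34, adjusted p 0.28). The member that fell was Tgfb3, a transforming growth factor, from 59.6, 52.7 and 57.7 to 22.0, 25.3 and 22.2 CPM (log2 -1.29, SE 0.13, adjusted p 1.1e-05).

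**Figure D3:**
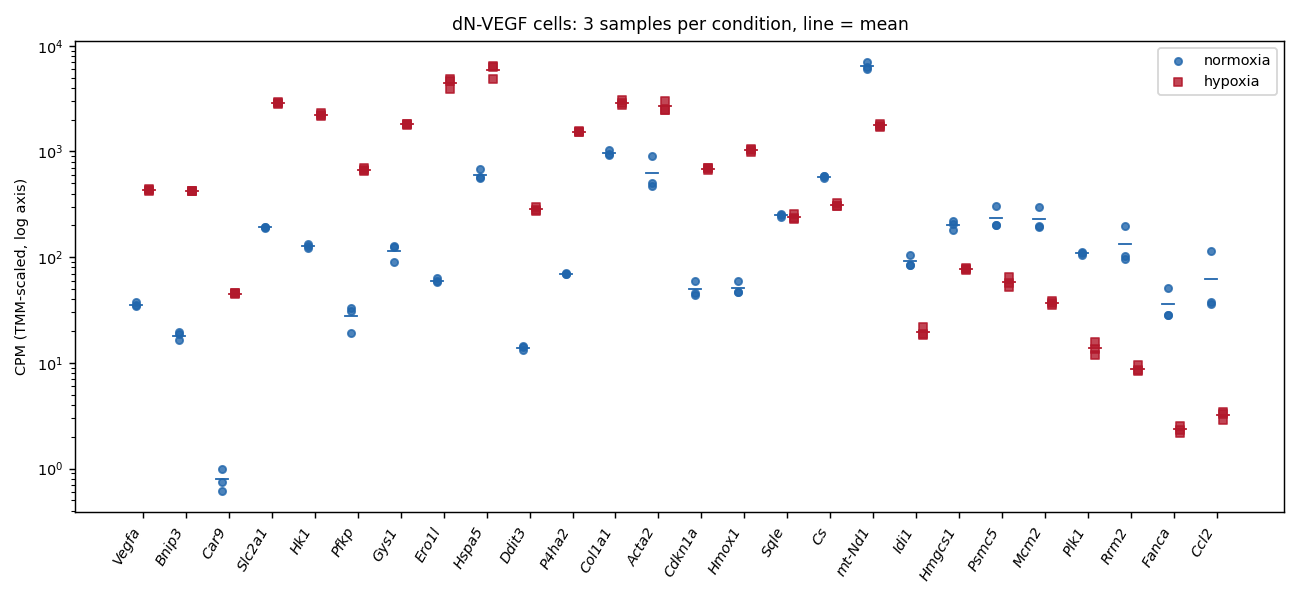
Levels of 26 genes in CPM on a log axis, with 3 normoxia samples (blue circles) and 3 hypoxia samples (red squares) of dN-VEGF cells each and a line at each mean. Conditions are apart for all genes shown except Sqle, with Vegfa at 34.2 to 37.3 CPM against 419 to 437 CPM and Plk1 at 104 to 113 CPM against 12 to 15.9 CPM.

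Genes for glucose import, glycolysis and lactate export rose in 20 of 25 tested members, 19 of them at least 2-fold, with 1 fall and a median of 2.14. Their summed level went from between 14648 and 15503 CPM to between 67078 and 71528 CPM. Slc2a1, the GLUT1 glucose transporter, had 192, 194 and 188 CPM in normoxia and 2970, 2846 and 2817 CPM in hypoxia, a 15-fold rise (log2 3.91, SE 0.28, adjusted p 1e-06). At the first step of glycolysis, hexokinase Hk1 went from 133, 121 and 129 to 2203, 2313 and 2186 CPM (17.5-fold), and Hk2, usually thought of as the inducible form, from 82.8, 86.6 and 82.4 to 605, 578 and 604 CPM (7.10-fold). In both conditions Hk1 was thus the higher of the pair in CPM, which are not corrected for transcript length. Pfkp, the platelet type of phosphofructokinase, rose 24.3-fold from 31.1, 19.3 and 32.8 CPM to 655, 700 and 669 CPM. Enolase Eno2 rose 16.1-fold, while Pgk1 and Ldha, which were abundant at the start (630 to 655 and 1175 to 1390 CPM), rose 3.82-fold and 4.54-fold.

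Of 12 tested glycogen genes 6 rose, all at least 2-fold, and 3 fell, against 26.9% and 26.4% of all genes, so that the falls stood at the share of all genes. Among those for the making of glycogen, the synthase Gys1 rose from 126, 89.6 and 128 to 1823, 1835 and 1769 CPM (15.8-fold) and the branching enzyme Gbe1 from 15.2, 17.7 and 15.5 to 374, 355 and 384 CPM (23-fold). Epm2a, which encodes laforin, the phosphatase that removes phosphate from glycogen, rose from 1.25, 1.87 and 1.64 to 73.1, 76.1 and 75.4 CPM (log2 5.56, SE 0.15, adjusted p 1.2e-09). For Gys1 and Pfkp, 6.47% and 5.58% of the exonic bases overlap well-counted genes of the other strand (Ruvbl2 and Pitrm1). Phkb, a subunit of phosphorylase kinase, which starts glycogen breakdown, fell from 46.4, 35.5 and 44.8 to 18.7, 17.5 and 17.9 CPM (log2 -1.22, SE 0.16, adjusted p 8.1e-05).

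Mitochondrial genes fell, by smaller steps than the rises above. In the tricarboxylic acid cycle and pyruvate dehydrogenase list 15 of 18 members fell, 3 of them at least 2-fold, and none rose (median -0.80). In that of the mitochondrial ribosome 47 of 76 fell, 16 of them at least 2-fold, and 3 rose (median -0.56). Of all genes 26.4% fell, 12.7% by at least 2-fold, and 26.9% rose. Citrate synthase Cs, which opens the cycle, went from 587, 558 and 588 to 305, 323 and 308 CPM (log2 -0.89, SE 0.12, adjusted p 9.2e-05). Idh3a, a subunit of isocitrate dehydrogenase, fell 3.20-fold and Ogdh, of the oxoglutarate dehydrogenase complex, 2.57-fold. In the mitochondrial ribosome Mrpl41 fell most, from 27.6, 40.5 and 26.2 to 10.1, 10.5 and 9.01 CPM, and Mrpl24, which shares 26.3% of its exonic bases with Rrnad1 on the other strand, rose 1.55-fold (with library totals, log2 0.22, adjusted p 0.26). Nuclear genes of the respiratory chain and ATP synthase fell in 36 of 76 members and rose in 6, with a median of -0.36, and 6 falls and 1 rise reached 2-fold. The largest fall was that of Cycs, the electron carrier cytochrome c, from 55.0, 73.5 and 56.1 to 9.71, 8.17 and 10 CPM (log2 -2.72, SE 0.47, adjusted p 0.00059). The complex I subunit Ndufs1 fell 2.13-fold, Cyc1 of complex III 2.35-fold and Sdha of complex II 1.30-fold. Cox4i1 of complex IV rose 1.28-fold (adjusted p 0.0062) and had a log2 value of -0.05 with library totals. Ndufv3, another complex I subunit, went the other way, from 68.6, 58.3 and 66.9 to 357, 378 and 364 CPM (5.67-fold, adjusted p 1.5e-06). The number of respiratory chain genes that fell depended on the samples and scaling: it was 23 without replicate 1 of dN-VEGF hypoxia and 67 with library totals.

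Of 11 tested genes encoded on the mitochondrial genome, 7 fell and none rose (median -0.67). The fall was not even along that genome. Complex I subunit mt-Nd1 went from 6251, 6997 and 6089 to 1747, 1715 and 1830 CPM (3.65-fold down, adjusted p 9.3e-06) and mt-Nd2 fell 3.08-fold. The cytochrome oxidase subunit mt-Co1 stood at 7091, 7340 and 7372 CPM in normoxia and at 6768, 6405 and 6960 CPM in hypoxia (log2 -0.11, SE 0.16, adjusted p 0.58). Its samples did not overlap, but the difference did not pass the test. With library totals mt-Co1 also fell (log2 -0.52, adjusted p 0.046). Mitochondrial genes as a whole took 3.14% to 3.55% of counts in normoxia and 1.53% to 1.63% in hypoxia.

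Cholesterol synthesis was the metabolic list that fell most. Of 24 tested members, 21 fell, 13 of them at least 2-fold, and none rose, with a median of -1.20. The largest falls were those of Dhcr7, which makes the last step to cholesterol (from 33.9, 30.6 and 34.4 to 5.39, 5.44 and 5.18 CPM, log2 -2.63, SE 0.23), Idi1 (from 84.4, 106 and 84.2 to 18.7, 22.0 and 18.5 CPM, log2 -2.21, SE 0.20) and Acat2 (from 156, 186 and 158 to 33.8, 42.4 and 35.2 CPM, log2 -2.16, SE 0.14). Hmgcs1, the synthase of an early step, fell 2.60-fold. The members that did not pass the test included Sqle, the first oxygen-dependent enzyme of the branch to sterols (253, 241 and 257 against 233, 255 and 232 CPM, log2 -0.06, SE 0.08, adjusted p 0.56). Without replicate 2 of dN-VEGF normoxia, 20 members of the list fell. With library totals Sqle fell (log2 -0.46, adjusted p 0.00039).

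In the fit of all 12 samples the sterol list was also the one in which the largest share of members responded differently from wild-type cells. The test of the difference between the lines' responses called 15 of 24 members, all toward a lower value in dN-VEGF cells, where 3.36% of all genes were called in either direction and 1.15% in this direction. The list median was -0.22 in wild-type cells. Idi1 changed by -0.59 there (adjusted p 0.034), and the difference was -1.63 (SE 0.28, adjusted p 0.014). For Hmgcs1 the wild-type value was -0.17 (adjusted p 0.28) and the difference -1.21 (SE 0.17, adjusted p 0.0063), and for Acat2 the values were -0.86 and -1.31 (SE 0.20, adjusted p of the difference 0.0089). Sqle rose in wild-type cells (0.41, adjusted p 0.002) and its difference was -0.47 (SE 0.11, adjusted p 0.047). Dhcr7, the member that fell most, fell in wild-type cells too (log2 -1.72) and the difference did not pass (-0.90, SE 0.30, adjusted p 0.12). The count of 15 was 20 without replicate 2 of wild-type normoxia, 16 without replicate 2 of dN-VEGF normoxia, and 7 without replicate 1 or without replicate 3 of dN-VEGF hypoxia.

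**Figure D4:**
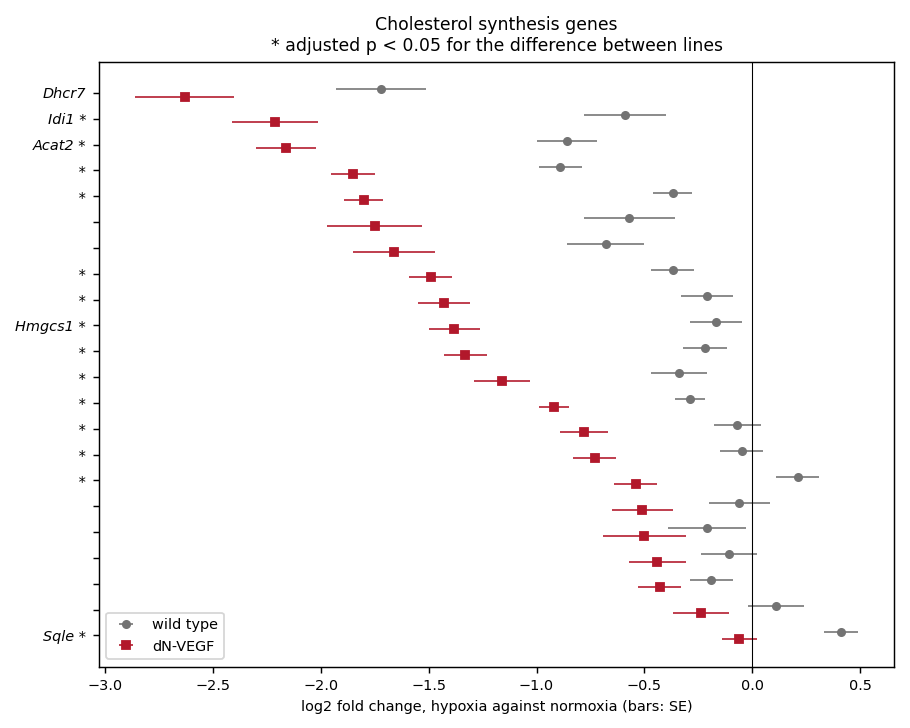
Log2 fold change of hypoxia against normoxia with its SE for 22 genes of cholesterol synthesis (1 per row, names for the 5 described in the text), in dN-VEGF cells (red squares) and wild-type cells (grey circles), ordered by the former. Asterisks mark the 14 genes shown whose responses differed between lines, and Dhcr7, with the lowest dN-VEGF value (-2.63, wild type -1.72), is not among them.

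Fatty acid synthesis and desaturation went both ways. Of 16 members 10 fell and 2 rose, with a median of -0.73. Elovl6, an elongase of long-chain fatty acids, fell from 54.8, 64.1 and 56.1 to 7.14, 7.62 and 7.94 CPM (log2 -2.94, SE 0.14, adjusted p 4.3e-08), and Acaca, the carboxylase at the entry of the pathway, fell 3.04-fold. Fatty acid synthase Fasn fell 2.38-fold and the desaturase Scd1 1.89-fold. The other desaturase of fibroblasts, Scd2, rose from 1841, 1944 and 1898 to 5562, 5564 and 5644 CPM (log2 1.56, SE 0.08, adjusted p 1.1e-07), as did Srebf1, which encodes the SREBP-1 factor (2.78-fold). Because Scd2 is abundant, the summed level of the list went up, from between 5239 and 5807 CPM to between 7618 and 7754 CPM, while its median fell.

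The ER list rose in 31 of 33 tested members, 28 of them at least 2-fold, and none fell. All 33 had their hypoxia samples above their normoxia samples, which held for 34.9% of all genes, and the median was 1.86. Ero1l, the oxidase that passes electrons from new disulfide bonds to oxygen and a HIF target as well, went from 58.2, 59.0 and 63.0 to 4631, 3941 and 4829 CPM. The rise was 74.3-fold (log2 6.22, SE 0.17, adjusted p 1.1e-09). The chaperone BiP (Hspa5), whose promoter element is printed above, went from 559, 682 and 576 to 6262, 4883 and 6462 CPM (9.69-fold, adjusted p 3e-08), and Hsp90b1 from 530, 650 and 549 to 5022, 4033 and 5352 CPM (8.33-fold). For both, and for Ero1l, replicate 2 was the lowest hypoxia sample. Herpud1, which takes part in the degradation of misfolded ER proteins, rose 10.3-fold, Sdf2l1 10.5-fold and the transcription factor Xbp1 4.65-fold.

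The ATF4 branch of the integrated stress response, which answers shortage of amino acids and ER stress by raising amino acid supply and death factors, rose in 23 of 31 members, 17 at least 2-fold, with none falling and a median of 1.09. Ddit3 (CHOP), a factor that favours cell death, went from 14.1, 13.3 and 14.3 to 301, 276 and 282 CPM (20.6-fold, adjusted p 1.2e-06). Of its exonic bases, 3.97% overlap Mars on the other strand, which is also well counted. Trib3, a pseudokinase that restrains ATF4, rose 27.4-fold from 12.3, 5.47 and 11.4 to 271, 267 and 261 CPM. Ppp1r15a (GADD34), the phosphatase subunit that ends the translational arrest, rose 10.8-fold and Atf4 itself 2.90-fold. Asparagine synthetase Asns rose from 223, 237 and 219 to 478, 472 and 494 CPM (log2 1.09, SE 0.07, adjusted p 5e-07). In this list 10 members responded more in dN-VEGF than in wild-type cells, where the list median was 0.45, and none less, against 2.21% of all genes that responded more. The difference was 1.83 for Ddit3 (SE 0.40, adjusted p 0.037), 1.18 for Ppp1r15a (SE 0.23, adjusted p 0.027) and 0.66 for Asns (SE 0.10, adjusted p 0.0090), while Trib3 (2.04, SE 0.51, adjusted p 0.055) did not pass. The count of 10 was 20 without replicate 2 of wild-type normoxia and 3 to 8 when a dN-VEGF sample was left out.

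Genes of cell division fell throughout. All 52 mitosis and spindle genes fell, every one of them at least 2-fold (range -3.13 to -1.13, median -2.30), where 26.4% of all genes fell. Their summed level went from between 4868 and 5499 CPM to between 1140 and 1229 CPM. The mitotic kinase Plk1, for which the promoter window is given above, went from 110, 113 and 104 to 12, 15.9 and 13.6 CPM (log2 -2.98, SE 0.51, adjusted p 0.00055). Cyclin B1 (Ccnb1) went from 45.3, 47.9 and 47.8 to 5.70, 7.01 and 6.26 CPM, and the proliferation marker Mki67 from 282, 290 and 306 to 51.9, 50.2 and 55.8 CPM. The kinesin Kif20a (log2 -3.13, SE 0.40) and the spindle checkpoint kinase Bub1b (log2 -3.12, SE 0.39) fell most, though 29.3% of the exonic bases of Kif20a are shared with Cdc23 on the other strand. Without replicate 2 of dN-VEGF normoxia, 51 of the 52 fell.

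DNA replication genes fell in 43 of 50 members, 41 at least 2-fold, with none rising and a median of -1.91. Rrm2, the subunit of ribonucleotide reductase that limits nucleotide supply and needs oxygen and iron for its radical, had 95.8, 199 and 102 CPM in normoxia and 8.49, 9.55 and 8.40 CPM in hypoxia (log2 -3.90, SE 0.70, adjusted p 0.00074). Replicate 2 of normoxia was the highest sample for Rrm2, and also for cyclin E (Ccne1, 39.3, 74.3 and 42.1 against 3.73, 4.34 and 3.50 CPM), the chromatin assembly factor Chaf1b (50.1, 89.7 and 46.8 against 5.83, 6.34 and 6.26 CPM) and the helicase subunits Mcm2 (198, 299 and 193 against 38.2, 37.0 and 35.5 CPM) and Mcm3 (329, 541 and 322 against 75.4, 81.4 and 72.7 CPM). All hypoxia samples lay below all normoxia samples in each case. The clamp Pcna fell 3.37-fold (log2 -1.75, SE 0.54, adjusted p 0.017). Its adjusted p was 0.072 without replicate 2 of normoxia, 0.059 without replicate 1 of hypoxia and 0.051 without replicate 2 of hypoxia. Without replicate 2 of dN-VEGF normoxia 35 members of the list fell, with a median of -1.65.

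In the list on homologous recombination and Fanconi anemia, 28 of 34 members fell, 21 at least 2-fold, and 1 rose, with a median of -1.35. Fanca, a subunit of the Fanconi core complex, went from 28.2, 51.6 and 28.5 to 2.54, 2.19 and 2.33 CPM (15.3-fold down, adjusted p 9.6e-05). Brca1 fell 3.66-fold and Brca2 2.96-fold. For Brca2 the response differed between lines: it stood at 12.8, 12.8 and 14.1 CPM in dN-VEGF normoxia and 4.89, 3.83 and 4.69 CPM in hypoxia, while the wild-type log2 change was -0.04 (adjusted p 0.89, difference -1.53, SE 0.27, adjusted p 0.017). Rad54l (difference -2.33, SE 0.51, adjusted p 0.034) and Fancd2 (-1.98, SE 0.46, adjusted p 0.041) also fell more in dN-VEGF cells. Of the 36 differences between lines that passed for genes named in this text, many rested on single samples. Without replicate 1 of dN-VEGF hypoxia 25 were lost, and without replicate 2 of dN-VEGF normoxia 4. Genes on the other strand share 15.4% of the exonic bases of Rad54l (Lrrc41) and 10.5% of those of Fanca (Zfp276). The DNA replication and mitosis lists had lower medians in dN-VEGF than in wild-type cells as well (-1.91 against -0.48 and -2.30 against -1.33), and 1 of 50 and 0 of 52 members passed the test of the difference in the fit of all 12 samples with edgeR (31 and 16 at an unadjusted p below 0.05, 7 and 3 with DESeq2). That outcome rested on replicate 2 of wild-type normoxia, without which 50 of 50 and 52 of 52 members passed.

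Of 15 tested regulators of the G1 phase 8 rose and 4 fell, against 26.9% and 26.4% of all genes, so that the falls stood at the share of all genes. The inhibitor Cdkn1a (p21) rose from 46.1, 59.2 and 44.0 to 698, 693 and 674 CPM (13.8-fold, adjusted p 5.5e-08), Cdkn1b (p27) 3.06-fold and Ccng2, an atypical cyclin of arrested cells, 12.5-fold. Cyclin D1 (Ccnd1) stood at 185, 225 and 179 CPM in normoxia and at 96.5, 103 and 95.7 CPM in hypoxia with an adjusted p of 0.070 (log2 -0.99, SE 0.43), and 23.4% of its exonic bases are shared with LTO1 on the other strand. Without replicate 2 of wild-type normoxia, which is not part of this contrast but sets the shared spread, the adjusted p was 6.6e-07. Among other p53 target genes (Cdkn1a was listed with the G1 regulators), 8 of 25 rose and 5 fell, against 26.9% and 26.4% of all genes, with a median of -0.01, close to that of all genes, and 5 rose with library totals.

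Genes of cell survival did not move as a list. Of 14 tested members of the BCL2 family 6 rose and 3 fell, against 26.9% and 26.4% of all genes. Bcl2, which protects from apoptosis, went from 6.91, 6.94 and 6.64 to 2.38, 1.83 and 2.05 CPM (log2 -1.71, SE 0.15, adjusted p 3.5e-06). Of the other protective members, Mcl1 rose 1.47-fold (adjusted p 0.0031) and Bcl2l1 had a log2 value of -0.48 (adjusted p 0.082). Both calls turned with library totals, to 0.16 (adjusted p 0.15) for Mcl1 and -0.88 (adjusted p 0.0008) for Bcl2l1, and without replicate 2 of wild-type normoxia the adjusted p of Bcl2l1 was 0.00055. Of the members that promote death, Bbc3 (PUMA) rose from 8.61, 4.97 and 7.84 to 25.8, 20.7 and 21.6 CPM (3.17-fold, adjusted p 0.00064) and Bnip3l rose 9.43-fold. Bcl2l11 (BIM) rose 2.07-fold (adjusted p 0.019), with an adjusted p of 0.070 without replicate 2 of dN-VEGF normoxia and of 0.15 with library totals. For 0 of 14 members the difference between the lines passed edgeR's test (5 at an unadjusted p below 0.05, and 2 with DESeq2), where 3.36% of all genes passed, so that a list of this size cannot be told apart from the rest by that count. Autophagy and mitophagy genes rose in 13 of 36 members, 6 at least 2-fold, and 3 fell, against 26.9% and 26.4% of all genes, and with library totals 8 rose.

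Cytosolic ribosomal proteins rose in 69 of 79 members, 1 of them at least 2-fold, with a median of 0.46. With library totals the median was 0.06 and 9 rose, so this small shift depends on the scaling. Fau rose most (354, 397 and 324 against 862, 856 and 781 CPM), followed by Rpl10 (1.98-fold), and Rpl3 rose 1.45-fold. Many of these genes have processed pseudogenes that can share reads with them. Of 48 genes for making ribosomes 26 fell, 22 at least 2-fold, and 1 rose (median -0.92). The number that fell was 41 without replicate 2 of wild-type normoxia and also with the 6 dN-VEGF samples alone, and 44 with library totals. Rrp12, needed for the export of ribosomal subunits, went from 68.4, 134 and 68.6 to 12.2, 13.7 and 11.9 CPM (7.15-fold down), and the helicase Ddx21 fell 5.13-fold. Nucleophosmin (Npm1) stood at 993 to 1241 CPM in normoxia and 1108 to 1253 CPM in hypoxia (log2 0.12, adjusted p 0.67).

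Proteasome subunits fell in 26 of 31 members, 17 at least 2-fold, and none rose. All 31 had their hypoxia samples below their normoxia samples, against 35.6% of all genes, and the median was -1.04. Psmc5, an ATPase of the regulatory particle, went from 201, 305 and 202 to 52.7, 65.3 and 56.6 CPM (log2 -2.02, SE 0.33, adjusted p 0.00044), and Psmb5, a catalytic subunit, fell 2.39-fold. Without replicate 2 of dN-VEGF normoxia, the highest of its group, 18 fell and the median was -0.83. Cytosolic chaperones fell in 12 of 26 members and rose in 3, against 26.4% and 26.9% of all genes (median -0.45). The number that fell was 19 with library totals and 18 without replicate 2 of wild-type normoxia.

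Collagen chains mostly rose in dN-VEGF cells. Of 21 tested chains 15 rose, 13 at least 2-fold, and 3 fell by less than 2-fold, with a median of 1.36. Col1a1, the main chain of type I collagen, went from 946, 1030 and 933 to 3088, 2862 and 2755 CPM (log2 1.58, SE 0.31, adjusted p 0.0013). Col16a1 rose 3.92-fold and Col12a1, which decorates collagen fibrils, 7.47-fold. Col3a1 stood at 378, 397 and 370 CPM in normoxia and at 1044, 1025 and 1011 CPM in hypoxia, a tight and separate pair of groups, with a log2 change of 1.43 (SE 0.49, adjusted p 0.029). In wild-type cells Col3a1 fell (-2.20, adjusted p 0.0054), and the difference was 3.62 (SE 0.70, adjusted p 0.023). Of the 21 chains 5 responded more in dN-VEGF cells and none less, against 2.21% and 1.15% of all genes, and the wild-type median was -0.06. The count of 5 was 16 without replicate 2 of wild-type normoxia, 13 with DESeq2, 2 with library totals and 1 when any dN-VEGF sample other than normoxia replicate 2 was left out. The rise of Col3a1 did not pass with library totals (log2 1.03, adjusted p 0.11) or when any dN-VEGF sample was left out (adjusted p 0.059 to 0.076) although its size hardly moved (1.40 to 1.45), and its difference between lines passed only without replicate 2 of normoxia among these fits (adjusted p 0.035, otherwise 0.060 to 0.075). Of the 3 chains that fell, Col4a6 fell most (log2 -0.68, adjusted p 0.029), and it did not pass either when most single dN-VEGF samples were left out (adjusted p 0.060 to 0.074).

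The enzymes that hydroxylate and crosslink collagen, which use oxygen, rose in 10 of 18 tested members, 8 at least 2-fold, and 4 fell, against 26.9% and 26.4% of all genes. Prolyl hydroxylase P4ha2 went from 69.0, 71.5 and 69.2 to 1537, 1559 and 1539 CPM (22.1-fold, adjusted p 6.4e-10) and P4ha1 from 152, 165 and 153 to 1254, 1228 and 1299 CPM (8.05-fold). Lysyl hydroxylase Plod2 rose 20-fold and Plod1 6.31-fold, and the lysyl oxidase Lox 6.25-fold, from 1271, 933 and 1213 to 7290, 6887 and 7175 CPM. P4ha2, Plod1 and Plod2 rose more than in wild-type cells, by 0.66 (SE 0.14, adjusted p 0.031), 0.97 (SE 0.15, adjusted p 0.0089) and 1.12 (SE 0.23, adjusted p 0.031). Lox, P4ha1, P4ha2 and Plod2 are HIF targets and counted in that list too.

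Contractile and YAP target genes rose in 18 of 25 members, 14 at least 2-fold, and 1 fell (median 1.28). Smooth muscle actin Acta2 went from 500, 901 and 476 to 2480, 3033 and 2490 CPM (4.26-fold, adjusted p 0.012), Actg2 rose 9.06-fold and the myosin light chain Myl9 4.52-fold. Of the YAP targets, Cyr61 rose 5.63-fold (109, 289 and 103 against 908, 1019 and 897 CPM, adjusted p 0.015). Ctgf stood at 71.1, 251 and 72.6 CPM against 377, 530 and 395 CPM and did not pass (log2 1.72, SE 0.76, adjusted p 0.078). In all of these replicate 2 of normoxia was the highest of its group, and without it Ctgf rose (log2 2.59, adjusted p 0.030). Without replicate 1 or replicate 3 of dN-VEGF normoxia the adjusted p of Cyr61 was 0.058, and without replicate 3 that of Acta2 was 0.050. Integrins and focal adhesion genes rose in 15 of 31 members and fell in 3, against 26.9% and 26.4% of all genes, and with library totals their median was -0.07. Itga7, a laminin receptor, rose 8.29-fold from 2.48, 5.68 and 2.94 CPM, Itgav 2.48-fold, and Itga3 fell 2.28-fold (adjusted p 0.0014), a fall that differed from the wild-type response by -1.38 (SE 0.33, adjusted p 0.048).

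Signalling genes gave a mixed picture. Of 12 tested chemokines 7 fell and 1 rose, with a median of -1.01. When at least 10 counts were required in each dN-VEGF sample, 4 fell and the median of the remaining members was 0.25. Ccl2, which draws in monocytes, was the gene with the largest fall of all under the naming rule, from 38.0, 114 and 36.4 to 3.32, 3.44 and 2.91 CPM (log2 -4.28, SE 0.43, adjusted p 1.1e-05), and Ccl7 fell 7.29-fold. Of 29 tested interferon-stimulated genes 7 fell and 3 rose, against 26.4% and 26.9% of all genes. The number that fell was 12 without replicate 2 of wild-type normoxia, 11 with the 6 dN-VEGF samples alone, and 4 without replicate 1 or without replicate 3 of dN-VEGF hypoxia. Slfn9 fell from 43.6, 74.3 and 48.4 to 7.39, 6.18 and 6.84 CPM, with a wild-type change of -0.42 (adjusted p 0.35) and a difference of -2.61 (SE 0.48, adjusted p 0.018). Immediate early factors rose in 14 of 24 members and fell in 3, against 26.9% and 26.4% of all genes. Fos went from 3.06, 2.27 and 2.96 to 29.8, 29.6 and 27.6 CPM (10.5-fold), Ier3 rose 13.1-fold and the MAP kinase phosphatase Dusp1 7.20-fold, while Egr3 fell 2.86-fold.

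The JmjC histone demethylases, which need oxygen to remove methyl groups, rose in 16 of 23 members, 11 at least 2-fold, and fell in 3. Their median was 0.93 (0.25 in wild-type cells). The difference between lines passed the test for 1 of the 23, against 3.36% of all genes. Kdm3a went from 45.5, 47.6 and 47.2 to 357, 320 and 351 CPM (log2 2.87, SE 0.10, adjusted p 4.7e-09), Jmjd6 rose 7.22-fold and Kdm4b 6.46-fold. With library totals 10 of the list rose. Clock genes rose in 10 of 20 members and fell in 2, against 26.9% and 26.4% of all genes, with a median of 0.39, but with library totals 6 rose and the median was -0.01. The repressor Ciart went from 2.02, 2.96 and 2.72 to 49.9, 51.9 and 50.5 CPM (19.8-fold), and Bhlhe40 (DEC1), also a HIF target, rose 9.10-fold. Of 16 iron genes 6 rose and 5 fell, not far from the shares of all genes (26.9% and 26.4%), and 3 rose with library totals or with no filter. Heme oxygenase Hmox1, which frees iron from heme, went from 46.5, 59.5 and 46.9 to 1061, 999 and 1026 CPM (20.2-fold, adjusted p 4.7e-09). The transferrin receptor Tfrc, for iron uptake, fell 3.56-fold with an adjusted p of 0.047, a call that did not hold without any single dN-VEGF sample (adjusted p 0.060 to 0.14). Of 28 NRF2 and glutathione genes 9 fell and 4 rose, against 26.4% and 26.9% of all genes, with a median of -0.06, and 15 fell with library totals. Growth factors, receptors and IGF-binding proteins fell in 12 of 29 members and rose in 7, against 26.4% and 26.9% of all genes. Pdgfrb, the PDGF receptor β, fell 2.72-fold and Igfbp4 rose 8.87-fold, from 42.8, 10.1 and 41.9 CPM. Of 39 splicing factors 7 rose and 7 fell, against 26.9% and 26.4% of all genes. The number that rose was 11 without replicate 2 of wild-type normoxia and 3 with library totals. Of 22 matrix proteases 5 rose and 3 fell, against the same shares of all genes (26.9% and 26.4%). The number that rose was 11 when both normoxia samples numbered 2 were left out and 3 with library totals.

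Over all genes with a mean of at least 10 CPM in the 6 samples, the 10 largest rises were of genes close to silent in normoxia. A2m, the protease inhibitor α2-macroglobulin, and Zbtb8b had at most 3 counts in every normoxia sample, and reached 91.1 to 97.2 and 32.8 to 35.2 CPM in hypoxia. Their hypoxia means (94.3 and 33.7 CPM) were at least 1283-fold and at least 458-fold higher than a floor of 3 counts per library. P2ry6, a receptor for extracellular UDP, went from 0.0861, 0.0474 and 0.0245 to 39.3, 39.8 and 37.9 CPM (log2 9.42, SE 0.24), and Selenbp1, a selenium-binding protein that oxidises methanethiol, from 0.754, 0.213 and 0.784 to 355, 366 and 348 CPM (log2 9.24, SE 0.70). They were followed by Megf6 (log2 8.99), the receptor Gpr35 (8.64), the flippase Atp9a (8.02), Spns3 (8.01), the incretin receptor Gipr (7.07) and Tmem45a (6.54). The 10 largest falls were those of Ccl2, Cemip (a hyaluronan-degrading protein, log2 -4.03), Fanca, Rrm2, Ccne1, Fgfbp3 (-3.65), the unclassified transcript Gm38312 (-3.56), osteopontin Spp1 (-3.54), the vitamin D receptor Vdr (-3.42) and Chaf1b. Of these 10 falls, 4 were of genes in the lists on replication and DNA repair. In Cemip (343, 77.4 and 350 against 15.4, 16.7 and 15 CPM) and Vdr (107, 20.6 and 106 against 7.36, 7.88 and 6.59 CPM) replicate 2 of normoxia was far below its fellows and still above the hypoxia samples.

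The response differed from that of wild-type cells, by the test of the difference, for 495 of 14724 genes (3.36%), with 326 toward a higher value in dN-VEGF cells and 169 toward a lower one. That number rested on the samples used: it was 6729 without replicate 2 of wild-type normoxia, 721 without replicate 2 of dN-VEGF normoxia, and 75 to 144 without any other single dN-VEGF sample. Vegfa was among the 495, with log2 changes of 2.01 in wild-type and 3.59 in dN-VEGF cells (difference 1.57, SE 0.32, adjusted p 0.028). Mean levels of Vegfa were 69.4 CPM in wild-type and 35.7 CPM in dN-VEGF normoxia, and 280 and 429 CPM in hypoxia. The deletion removes a stretch of Vegfa exon 1 in all dN-VEGF samples. Counts of the gene in the lines therefore come from transcripts of different length. Genes that passed the test were ranked by the difference, with a mean of 10 CPM or more over all 12 samples required. The largest toward higher values in dN-VEGF cells were the chemokine receptor Ccr7 (difference 4.67), the alarmin Il33 (3.94), Col3a1, P2ry6 (3.34) and the proteoglycan decorin, Dcn (2.88). Ccr7 rose in dN-VEGF cells, from 10.7, 5.99 and 9.95 to 50.9, 47.3 and 46.1 CPM, and fell in wild-type cells (-2.24, adjusted p 0.023). Il33 rose from 22.1, 47.2 and 23.8 to 169, 171 and 173 CPM, with a wild-type value of -1.47 (adjusted p 0.064). Dcn stood at 47.3, 79.1 and 46.7 CPM against 60.6, 60.4 and 61.7 CPM in dN-VEGF cells (log2 0.08, adjusted p 0.90) and fell in wild-type cells (-2.80). Toward lower values the largest were Edn2 (endothelin 2, difference -3.29), Slfn9, Rad54l, Gm2115 (-1.98) and Fancd2. Edn2 rose in both lines, by 4.91 in dN-VEGF and 8.2 in wild-type cells.

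The identity of the cells was checked with marker genes. Fibroblast markers were abundant in both conditions, with a summed level of 21808 to 23210 CPM in normoxia and 52302 to 54407 CPM in hypoxia over 10 tested markers, of which 5 rose and 3 fell. Vimentin (Vim) rose from a mean of 6000 to 17286 CPM and fibronectin (Fn1) from 9635 to 15555 CPM, while Thy1 fell from 441 to 198 CPM and Cd44 from 280 to 124 CPM. Markers of endothelial cells, leukocytes, epithelium, adipocytes and skeletal muscle were mostly too low to test: 3 of 8, 3 of 8, 3 of 8, 1 of 7 and 3 of 8 passed the filter. The defining markers Ptprc, Adgre1, Kdr, Epcam, Adipoq and Myod1 had 0 or 1 count in every dN-VEGF sample. Summed levels stayed at or below 63.7 CPM in every sample for each of these lists. Of the tested markers, 2 endothelial, 2 leukocyte, 1 epithelial, 1 adipocyte and 2 muscle genes rose, and 1 leukocyte and 1 epithelial gene fell. The macrophage receptor Csf1r rose from a mean of 4.19 to 51.6 CPM, the endothelial cadherin Cdh5 from 2.32 to 22.2 CPM and the skeletal actin Acta1 from 0.309 to 11.6 CPM (log2 5.22), while the monocyte receptor Cd14 fell from 16.1 to 4.54 CPM (log2 -1.83) and the keratin Krt8 from 0.208 to 0.0312 CPM (log2 -2.61). Acta1 was chosen after its values were seen.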

How the data were processed

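RNA-Seq counts of 12 samples were used, of which 6 (dN-VEGF cells in normoxia and hypoxia, 3 each) carry the comparison and 6 (wild-type NIH3T3) share the model. Per the methods and the submitters' processing notes, the authors sequenced single reads of 80 bases, trimmed them (cutadapt 1.10), aligned them to GRCm38.p6 with TopHat2 2.1.0 and counted reads per gene of Ensembl release 94 with HTSeq 0.6.1. The deposited values are raw counts, whole numbers without scaling. Libraries were made with the TruSeq RNA kit v2, per the methods. Whether reads were counted by strand is not given in the sources used here.

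Genes were kept by filterByExpr, scaled by TMM and fitted with 1 mean per group in edgeR 4.0.16 (R 4.3.3). P-values came from its quasi-likelihood F test, with Benjamini-Hochberg adjustment over 14724 genes. SEs are the log2 fold change divided by the root of the F statistic. The dN-VEGF samples held 36251428 to 41608788 counts. Alternatives were DESeq2 1.42.0, RLE factors, library totals, 2 other filters, the 6 dN-VEGF samples alone, single samples left out, a replicate block and other thresholds. Leaving out both normoxia samples numbered 2, and the block within the 6 samples, were added after seeing the data.

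Gene lists and members were chosen with earlier results of these data known. Named genes are lead members marked in the lists, the 3 largest rises and falls per list (adjusted p below 0.05, at least 10 CPM on average, no overlap between conditions), the 10 largest rises and 10 largest falls overall that were also at least 2-fold, and the 5 largest differences between lines in each direction (at least 10 CPM over all samples). Of 299 such genes, 146 are described, chosen after their values were seen, and 153 are left out, some of them because they are not reported here. Marker genes named for cell identity come from the marker lists. Genes with at most 3 counts in every sample of a group are given as bounds. Exon overlaps came from GENCODE vM21.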

Additional observations from a re-analysis of the deposited data

Results flagged for a closer look

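The results listed here are genes described above whose response to hypoxia differed between dN-VEGF and wild-type cells by edgeR's test of that difference at an adjusted p below 0.05. Values are dN-VEGF minus wild-type log2 fold changes. Over these genes and all alternatives, 135 differences lost significance and 364 kept it, and none changed direction. Most losses were in fits with fewer samples. Of 36 differences, 25 were lost without replicate 1 of dN-VEGF hypoxia and 25 without replicate 3. Without replicate 2 of dN-VEGF hypoxia, or replicate 1 or 3 of dN-VEGF normoxia, 21 were lost each time. Without replicate 2 of dN-VEGF normoxia, 4 were lost.

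Among genes near silence in dN-VEGF normoxia or rising most, the differences were 4.68 for Atp9a, 4.2 for Spns3, 3.34 for P2ry6, 2.65 for Gipr and 1.88 for Tmem45a. Immune and matrix genes with a positive difference were Ccr7 (4.67), Il33 (3.94), Col3a1 (3.62), Dcn (2.88), Plod2 (1.12), Plod1 (0.97) and P4ha2 (0.66).

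In stress and ER genes the differences were 1.83 for Ddit3, 1.18 for Ppp1r15a, 1.16 for Ero1l, 1.07 for Herpud1, 0.93 for Hmox1 and 0.66 for Asns. In glucose and other HIF-linked genes they were 1.57 for Vegfa, 1.38 for Epm2a, 1.24 for Pfkp and 1.16 for Hk1. The clock gene Ciart had 1.3 and the ribosomal protein gene Rpl10 0.58.

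Negative differences in lipid genes were -1.63 for Idi1, -1.42 for Elovl6, -1.31 for Acat2, -1.21 for Hmgcs1 and -0.47 for Sqle. In DNA repair genes they were -2.33 for Rad54l, -1.98 for Fancd2 and -1.53 for Brca2. The remaining ones were Edn2 (-3.29), Slfn9 (-2.61), Gm2115 (-1.98) and Itga3 (-1.38).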

How the results depend on the processing

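Over all alternatives, 568 list counts stayed within 1.5 times the main value and 44 did not, and of the log2 fold changes of named genes 2256 kept direction and call, 33 lost and 25 gained significance and 6 changed sign. With library totals, 1381 genes rose and 3469 fell at least 2-fold. With no fold threshold 7853 changed (3964 up, 3889 down).

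With library totals, falls numbered 67 for the respiratory chain, 44 for ribosome biogenesis, 19 for cytosolic chaperones and 15 for NRF2 genes, and rises 10 for JmjC demethylases, 9 for ribosomal proteins, 8 for autophagy, 6 for clock, 5 for p53 targets, and 3 each for iron, splicing and matrix protease genes. Medians changed sign for autophagy (-0.15), integrins (-0.07) and the clock (-0.01), as did Dcn (-0.31), Npm1 (-0.28) and Cox4i1 (-0.05). RLE factors gave the p53 targets a median of 0.01. With no filter, 3 iron genes rose and Dcn had -0.02. With at least 10 counts required, 4 chemokines fell (median 0.25) and the p53 median was 0.02.

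At a 2-fold threshold, falls numbered 17 for proteasome, 16 for mitochondrial ribosome, 13 for cholesterol, 7 for growth factors, 6 each for the respiratory chain and cytosolic chaperones, 3 each for mitochondrially encoded, TCA cycle and fatty acid genes and 2 for splicing. Rises numbered 8 for integrins, 6 for autophagy, 4 for G1 regulators, 3 for matrix proteases and 1 each for iron, splicing and ribosomal protein genes.

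Leaving out single samples gave 23 to 54 falls for the respiratory chain, 20 to 41 for ribosome biogenesis and 4 to 13 for interferon-stimulated genes, and 5 to 11 rises for splicing and 4 to 11 for matrix proteases. The extremes include leaving out both normoxia samples numbered 2. The p53 median ran from -0.03 to 0.01 over these fits (positive without dN-VEGF normoxia replicate 3), the matrix protease median from -0.16 to 0.07 (positive without replicate 2) and Dcn from -0.06 (without replicate 1 or 3) to 0.37. With only the 6 dN-VEGF samples 41 ribosome biogenesis genes and 11 interferon-stimulated genes fell. Differences between lines numbered 75 to 7963 over the fits leaving samples out, 903 with library totals, 1488 with DESeq2 and 230 at 2-fold. Among them were 7 to 22 cholesterol genes (7 at 2-fold), 3 to 22 ATF4 genes (6 with library totals), 1 to 50 DNA replication genes (9 with library totals, 5 with no filter, 2 with at least 10 counts, 7 with DESeq2), 0 to 52 mitosis genes (3 with library totals, no filter or DESeq2) and 1 to 17 collagens (2 with library totals, 9 with no filter, 13 with DESeq2). The cause of these shifts was not tested.

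The replicate number as a block gave 4050 changed genes and differences between lines for 3 DNA replication genes and 1 mitosis gene, and 3934 within the 6 dN-VEGF samples (41 ribosome biogenesis and 11 interferon-stimulated genes fell there). Same-numbered samples correlated in their deviations at 0.0652, 0.0556 and 0.0472, so the numbers were not taken to pair them. Every named number pair correlated better than the crossed ones, which is a hint from the data only.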

Other observations

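Families formed from gene symbols alone (the letters before the first digit, protein-coding genes, at least 15 tested members) gave 74 groups, to be read against the 26.9% of all tested genes that rose and the 26.4% that fell. Their medians add some groups that the lists leave out. Nucleoporins (Nup), which line the nuclear pore, fell in 14 of 20 members with none rising and had the lowest median (-0.87, -0.52 in wild-type cells). Subunits of the Integrator complex (Ints), which processes small nuclear RNAs, fell in 10 of 15 members with none rising (median -0.50). At the other end, genes with the stem Gpr, mostly orphan G protein-coupled receptors, rose in 17 of 31 members and fell in 4 (median 0.74, 0.20 in wild-type cells), and Hist genes, which encode histones of the replication-linked clusters, rose in 9 of 22 and fell in 2 (median 0.69). The rise of Hist transcripts stood beside the fall of 43 of 50 DNA replication genes. The methods name the TruSeq RNA kit v2 for the libraries. How it captured histone messages, which mostly lack a poly(A) tail, was not examined. The groups were formed after the data had been seen and carry no test.

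By gene type, 1693 of 12428 protein-coding genes rose at least 2-fold and 1669 fell. Of 406 antisense transcripts 92 rose and 30 fell, and of 507 processed pseudogenes 121 rose and 30 fell. Reads of pseudogenes can come from their parent genes, and those of antisense transcripts cannot be told apart from their partners without strand.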
